A study of Homo sapiens with 6 samples.

Results

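The PICALM, MLLT10 and HOXA axis comprised 9 genes of 20163 protein-coding genes (64449 annotated genes in all): PICALM and MLLT10, whose fusion is carried by the U937 cell line, the HOXA genes HOXA5, HOXA7, HOXA9, HOXA10, HOXA11 and HOXA13, and MEIS1, which encodes a DNA-binding partner of HOXA proteins. The rule that named the genes rests on their known role in this type of leukemia and uses no measured value, although earlier results of these data were known when it was set. Peaks were assigned to a gene when they overlapped its body extended by 10 kb on each side, in hg19 coordinates and with the gene models of GENCODE release 44.

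PICALM encodes a clathrin assembly protein and MLLT10 a partner of the histone methyltransferase DOT1L. In leukemias with the PICALM-MLLT10 fusion, the MLLT10 portion is known to recruit DOT1L to the HOXA genes, which are transcription factors of blood progenitors normally silenced as these cells mature, and MEIS1 is often expressed together with them. DEK is an abundant chromatin protein and H3K4me3 a histone mark of active transcription start sites, which can spread over whole gene clusters.

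All samples were from U937, an established myeloid cell line grown without treatment, so that there was 1 condition. Chromatin was precipitated with an antibody against DEK or against H3K4me3, with 2 precipitations each, and 2 Input samples held chromatin that had not been precipitated. Each of the 4 precipitations had its own list of peaks, and no list of the Input samples was used here. The fused and the intact copies of PICALM and MLLT10 have the same sequence within a peak and could not be told apart.

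The lists differed much in length. DEK replicate 1 had 15017 peaks and DEK replicate 2 had 152779, while H3K4me3 replicate 1 had 47523 and H3K4me3 replicate 2 had 29335. The false discovery rate deposited with the peaks of DEK replicate 1 was 100% for every peak, against a median of 1.11% in DEK replicate 2, so replicate 1 peaks are given as called and not as individually secure. A gene without a peak in a list had no called peak, which does not mean that it had no tags, and for the depth of sequencing only a minimum per sample is stated, so the depth behind each list is not known exactly. H3K4me3 peaks lay within 1 kb of a start of 6 and 5 of 6 myeloid marker genes in replicates 1 and 2, of 1 and 0 of 3 T cell markers, of 2 and 1 of 3 B cell markers, of 1 and 0 of 3 erythroid markers and of 0 and 0 of 3 epithelial markers.

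Every gene of the axis had a DEK peak, as most protein-coding genes did, and the longer list of replicate 2 held most of these peaks. DEK replicate 1 had a peak in the extended body of 5 of the 9 genes (PICALM, MLLT10, HOXA5, HOXA13 and MEIS1), where 32.6% of all protein-coding genes had one. The windows of PICALM, MLLT10 and MEIS1 were in the range of 100 to 250 kb, where the share was 55.4%. Those of the HOXA genes were in the range of 20 to 35 kb, where it was 16.8%. DEK replicate 2 had a peak at 9 of 9, where 90.9% of all genes had one. For the same 2 ranges of window length, its shares were 97.7% (100 to 250 kb) and 82.2% (20 to 35 kb). An interval shared by both DEK lists lay at 3 of 9 genes, PICALM, MLLT10 and MEIS1, where 15.7% of all genes had one. These 3 genes are long, and among the 3319 protein-coding genes with windows of 100 to 250 kb the share with a shared interval was 25.6%. None of the 6 HOXA genes had a shared interval, against 8.72% of the 7097 genes with windows of 20 to 35 kb. No test was run, because 2 precipitations of 1 condition allow none and because the HOXA windows overlap and share peaks.

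At the transcription start sites, DEK replicate 1 had a peak within 1 kb for 3 of 9 genes (PICALM, HOXA13 and MEIS1), against 10.2% of all genes. DEK replicate 2 had one for 8 of 9, all but MLLT10, against 62.4%. A shared interval reached a start of PICALM and of MEIS1, thus 2 of 9 genes, against 5.02%. At PICALM this was 1 of 23 annotated starts, an internal one, in replicate 1 as in the shared intervals. At MEIS1 it was 6 of 17. A gene with more annotated starts has more chances of a peak near a start. H3K4me3 peaks lay within 1 kb of a start of 8 of 9 genes in both lists, all but HOXA5, against 61.9% of all genes in replicate 1 and 58.8% in replicate 2.

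The HOXA genes lay under the widest H3K4me3 peak of the genome in both lists. In H3K4me3 replicate 1 this peak spanned chr7:27188235-27244578, which is 56344 bp, and the next widest of the 47523 peaks was 31270 bp. In H3K4me3 replicate 2 it spanned chr7:27188653-27239348, which is 50696 bp, followed after a short gap by a peak of 4769 bp, and the next widest of the 29335 peaks was 26245 bp. The median peak was 1480 bp wide in replicate 1 and 1651 bp in replicate 2. The domain covered 100% of the bodies of HOXA7, HOXA9, HOXA10 and HOXA11 in both lists. HOXA13, the last gene of the cluster, was covered over 100% and 97.4% of its body. HOXA5 lay outside the domain, with 0% of its body covered in either list and the nearest H3K4me3 peak 4816 and 4760 bp from a start.

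**Figure D1:**
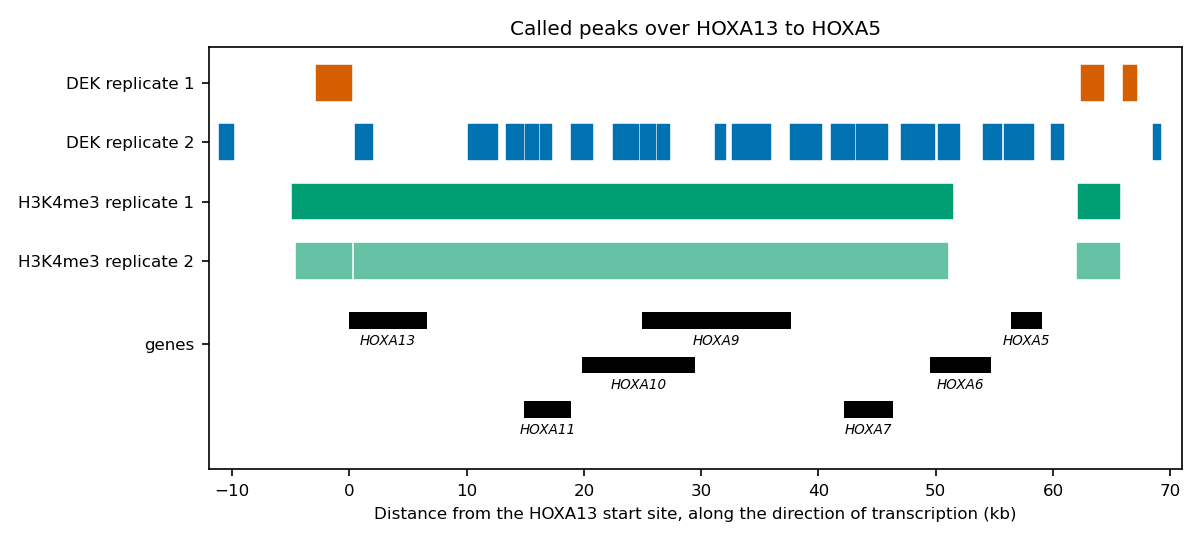
Called peaks from HOXA13 to HOXA5, with the distance from the HOXA13 start site in kb on the horizontal axis, one row per list and the bodies of the 6 HOXA genes of the axis and of HOXA6 below. Of the 21 DEK replicate 2 peaks, 16 overlap the wide H3K4me3 domain of both lists and 5 lie outside it. The 3 DEK replicate 1 peaks lie at the HOXA13 end of the domain and beyond HOXA5.

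DEK replicate 2 peaks were dense over the same genes. The merged HOXA windows, chr7:27170671-27249710 (79 kb), held 21 DEK replicate 2 peaks, or 26.6 per 100 kb against 4.92 over the chromosomes, and these peaks covered 46.5% of the windows against 4.32% of the chromosomes. They were broad, with a median width of 1689 bp and a median of 68 tags (sequenced fragments counted in the peak), against 697 bp and 20 tags over the whole list. Their median score, which is the −log10 p-value of the peak caller multiplied by 10, was 155.72 against 78.28. Their median fold enrichment over the local background was 3.75 and thus below the 4.58 of the whole list. The 16 peaks in the wide H3K4me3 domain had a median score of 146.3 and a median fold enrichment of 3.545. The 5 peaks outside it had 247.2 and 4.9.

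The 2 highest scores lay at and beside HOXA9, the HOXA gene most closely tied to myeloid leukemia. The peak at chr7:27203784-27207077, over a HOXA9 start, had 138 tags, scored 493.85 and was enriched 3.95-fold. The peak at chr7:27199450-27202119, between HOXA7 and HOXA9, also had 138 tags, scored 459.44 and was enriched 6.47-fold. The third score, 303.39 with 84 tags, belonged to the peak at chr7:27181351-27183862 over the HOXA5 start, where no H3K4me3 peak was called.

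By gene, the number of DEK replicate 2 peaks in the window was 12 for HOXA9, 11 for HOXA10, 8 for HOXA7, 8 for HOXA11, 6 for HOXA5 and 6 for HOXA13, with a median of 3 among all genes with windows of 20 to 35 kb. Of those 7097 genes, 1.66% had as many as HOXA9, 3.06% as many as HOXA10, 12.8% as many as HOXA7 and HOXA11, and 26.6% as many as HOXA5 and HOXA13. Of these 6 genes, the central ones thus stood further from the median than the outer ones. Genes next to each other on the chromosome have overlapping windows and share peaks, so their numbers are not independent. HOXA9 and HOXA10 also had the longest of these windows (32.7 and 29.7 kb), and HOXA5 the shortest (22.6 kb). Per 100 kb the contrast was smaller, with 36.6 peaks for HOXA9, 37.1 for HOXA10, 33.0 for HOXA7, 33.2 for HOXA11, 26.5 for HOXA5 and 22.6 for HOXA13.

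The sequence around the summits of these peaks was mostly single-copy. As a measure of copy number, the 24-mers within 100 bp of each summit were counted over the chromosomes, and a peak was called high-copy when their median count was at least 100. None of the 21 HOXA peaks was high-copy, against 38.0% of the DEK replicate 2 list, and the median count was 1 in each of them. Summit windows of 200 bases are printed as examples of this GC-rich sequence, on the plus strand of hg19 and outside annotated UTRs, with matches to the 6 motifs searched in capitals.
HOXA7 to HOXA9, chr7:27200717-27200916: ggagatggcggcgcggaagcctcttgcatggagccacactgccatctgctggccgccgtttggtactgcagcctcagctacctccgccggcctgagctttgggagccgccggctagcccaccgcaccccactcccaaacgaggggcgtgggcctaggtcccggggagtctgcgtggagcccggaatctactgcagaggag
HOXA10, chr7:27214108-27214307: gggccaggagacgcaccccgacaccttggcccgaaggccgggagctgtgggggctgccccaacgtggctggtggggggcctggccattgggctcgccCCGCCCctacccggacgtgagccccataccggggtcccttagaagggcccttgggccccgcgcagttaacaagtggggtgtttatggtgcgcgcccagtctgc
The capitals in the HOXA10 window mark 1 match to GGGCGG, the SP1 motif, on the minus strand, and the HOXA7 to HOXA9 window held no match.

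The motifs were also counted in a window around the middle of each peak, on both strands. AGGAAG, the core of the PU.1 motif, was found in 8 of the 21 HOXA peaks of DEK replicate 2 and in 20% of all peaks of the list. GGGCGG was found in 8 of 21 and in 22% of all. TGTGGT, the RUNX1 motif, was found in 1 of 21 and in 20.5% of all, and TGACAG, the MEIS1 motif, in 1 of 21 and in 18.8%. CACGTG, the USF1 motif, was found in 0 of 21 and in 4.93% of all, and TGATTTAT, the motif of HOXA9 with PBX, in 0 of 21 and in 0.607%. These are matches of letters and not measured binding sites.

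DEK replicate 1 had no such run of peaks through the domain. Its list held 3 peaks in the HOXA windows, or 3.80 per 100 kb against 0.482 over the chromosomes. The peak at chr7:27172543-27173720 had 55 tags and a score of 54.31, and the peak at chr7:27175400-27177340 had 90 tags and a score of 80.42. Both lay beyond HOXA5, toward HOXA4. The peak at chr7:27239510-27242515 had 195 tags and a score of 73.3 and lay over the HOXA13 start and the start of HOTTIP, a long noncoding RNA transcribed away from HOXA13. Between the last of these and HOXA5 no peak was called in replicate 1.

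Of the 3 HOXA peaks of replicate 1, 0 overlapped a replicate 2 peak, where 27.4% of the whole replicate 1 list did. Of the 21 HOXA peaks of replicate 2, 0 overlapped a replicate 1 peak, where 2.9% of that whole list did. The gaps to the nearest DEK replicate 2 peak were 1399, 1452 and 249 bp, the smallest at HOXA13. The start of HOXA13 thus had a DEK peak within 1 kb in each list but no shared interval, and the shared interval nearest to any HOXA start was 393701 bp away. Of the genes with windows of 20 to 35 kb, 2.96% had as many replicate 1 peaks as HOXA5, which had 2, and 16.8% as many as HOXA13, which had 1. The dense DEK signal over HOXA7 to HOXA11 therefore rests on replicate 2 alone.

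Among wide H3K4me3 peaks, the HOXA domain was set apart by its DEK replicate 2 peaks. Of the H3K4me3 peaks of at least 10 kb, 59 in replicate 1 and 32 in replicate 2, the HOXA domain overlapped 16 DEK replicate 2 peaks in either list. The next highest numbers were 5 and 4, and the medians 2 and 1. The domain was also the longest, and by the share of its length the order changed. DEK replicate 2 peaks covered 53.7% of the replicate 1 domain, which 8 of the 59 wide peaks reached (the highest other value was 91.0%), and 58.8% of the replicate 2 domain, where the next of the 32 was 45.7%. DEK replicate 1 had 1 peak in the replicate 1 domain, covering 5.34% of it, and 0 in the replicate 2 domain.

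**Figure D2:**
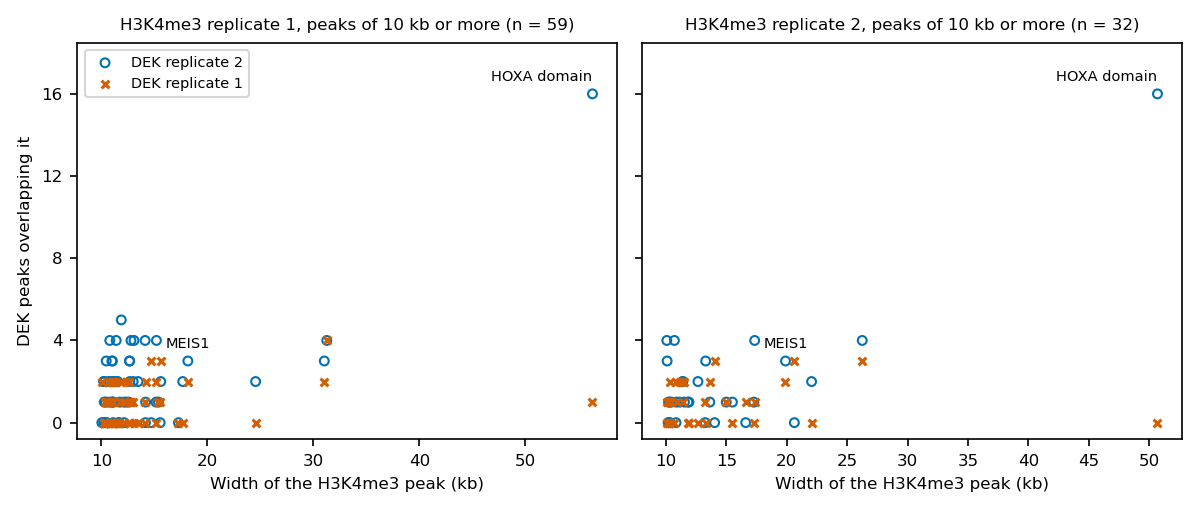
Number of DEK peaks overlapping each H3K4me3 peak of at least 10 kb against its width in kb, for the 59 such peaks of H3K4me3 replicate 1 (left) and the 32 of replicate 2 (right). Circles are DEK replicate 2 and crosses DEK replicate 1; the HOXA domain is widest, with 16 DEK replicate 2 peaks and 1 or 0 DEK replicate 1 peaks, and the MEIS1 domain has 3 and 2.

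The other HOX clusters, which carry related genes on other chromosomes, had a smaller share of their length covered by DEK replicate 2 and H3K4me3 peaks. This comparison was chosen after the values of the HOXA genes were seen. From the first to the last gene, DEK replicate 2 peaks covered 42.3% of the HOXA cluster (107.1 kb), 11.6% of HOXB, 9.26% of HOXC and 2.3% of HOXD. By number, HOXB had nearly as many DEK replicate 2 peaks as HOXA, 27 against 28, but over 200.2 kb. Per 100 kb there were 26.1 in HOXA, 13.5 in HOXB, 11.1 in HOXC and 4.07 in HOXD. H3K4me3 peaks covered 59.7% of HOXA in replicate 1 and 59.1% in replicate 2, against 6.57% and 3.24% of HOXB, 26.0% and 18.2% of HOXC, and 1.87% and 1.83% of HOXD. The order differed between the marks, since HOXC had more H3K4me3 than HOXB but less of DEK replicate 2. DEK replicate 1 covered 3.1% of HOXA, 2.06% of HOXB, 4.78% of HOXC and 0.0% of HOXD, so that HOXA was not the highest in that list.

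**Figure D3:**
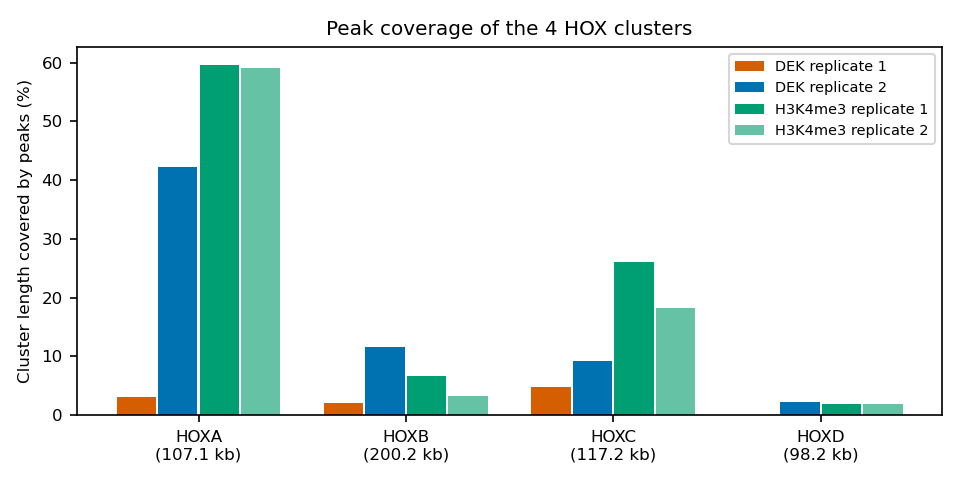
Share of the length of each HOX cluster, from its first to its last gene, covered by peaks of the 4 lists, in percent, with one bar per list and no error bars, since each bar is 1 precipitation. HOXA has the highest coverage in DEK replicate 2 (42.3%) and both H3K4me3 lists, and HOXC the highest in DEK replicate 1 (4.78%).

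The genome also held other regions as dense in DEK replicate 2 peaks. Of 61927 tiles of 50 kb, 1561 had at least as many DEK replicate 2 peaks as the 12 in the tile from HOXA9 to HOXA13, and 542 were covered to at least the same 42.3%. Noncoding genes of the cluster with a start within 1 kb of a DEK replicate 2 peak of the windows included HOXA-AS3, HOXA10-AS, HOXA11-AS, HOTTIP and the microRNA gene MIR196B.

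MEIS1 was the gene of the axis where peaks of all 4 lists overlapped near annotated starts. Its H3K4me3 domain ranked 5 by width in both lists, at chr2:66657040-66675198 (18159 bp) in replicate 1 and chr2:66655647-66675534 (19888 bp) in replicate 2. Its window of 160.4 kb held 4 DEK replicate 1 peaks, 11 DEK replicate 2 peaks and 3 shared intervals. Of the 3319 genes with windows of 100 to 250 kb, 6.66% had as many DEK replicate 1 peaks and 47.1% as many DEK replicate 2 peaks, so the number was high in replicate 1 only.

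The 3 shared intervals of MEIS1 lay inside the H3K4me3 domain of both lists. Their middles were intronic, but the first and the last of them also covered annotated MEIS1 starts. At chr2:66661076-66662635, near the first start of the gene, DEK replicate 1 had 105 tags and a score of 131.33, and replicate 2 had 66 tags and a score of 92.29. Further in, 1 broad replicate 1 peak with 134 tags and a score of 133.22 met 2 replicate 2 peaks. These gave the shared intervals chr2:66671449-66672176, with 29 tags and a score of 125.96 in replicate 2, and chr2:66672208-66674268, with 68 tags and a score of 218.28. The antisense genes MEIS1-AS3 and MEIS1-AS2 have starts within 1 kb of the first and of the other pair, and the peaks do not assign DEK to one strand.

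All 3 shared intervals had a 24-mer count of 1 at both summits, and MEIS1 was the only gene of the axis that kept a shared interval when high-copy peaks were left out. The summit window of the narrow replicate 2 peak is printed because it lies inside all 4 lists.
MEIS1, chr2:66671688-66671887: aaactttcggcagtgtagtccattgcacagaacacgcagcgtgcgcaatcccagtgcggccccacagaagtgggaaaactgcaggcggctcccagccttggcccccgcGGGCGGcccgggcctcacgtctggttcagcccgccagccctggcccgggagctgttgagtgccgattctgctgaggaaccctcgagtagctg
The capitals mark 1 match to GGGCGG. The highest DEK replicate 2 score of the MEIS1 window was elsewhere, 412.96 with 63 tags at chr2:66802515-66804492, downstream of the gene near LINC01798 and touching an H3K4me3 peak in both lists, with no DEK replicate 1 peak. The 2 remaining DEK replicate 1 peaks, with 39 and 34 tags, lay in introns without H3K4me3 and without a replicate 2 peak.

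**Figure D4:**
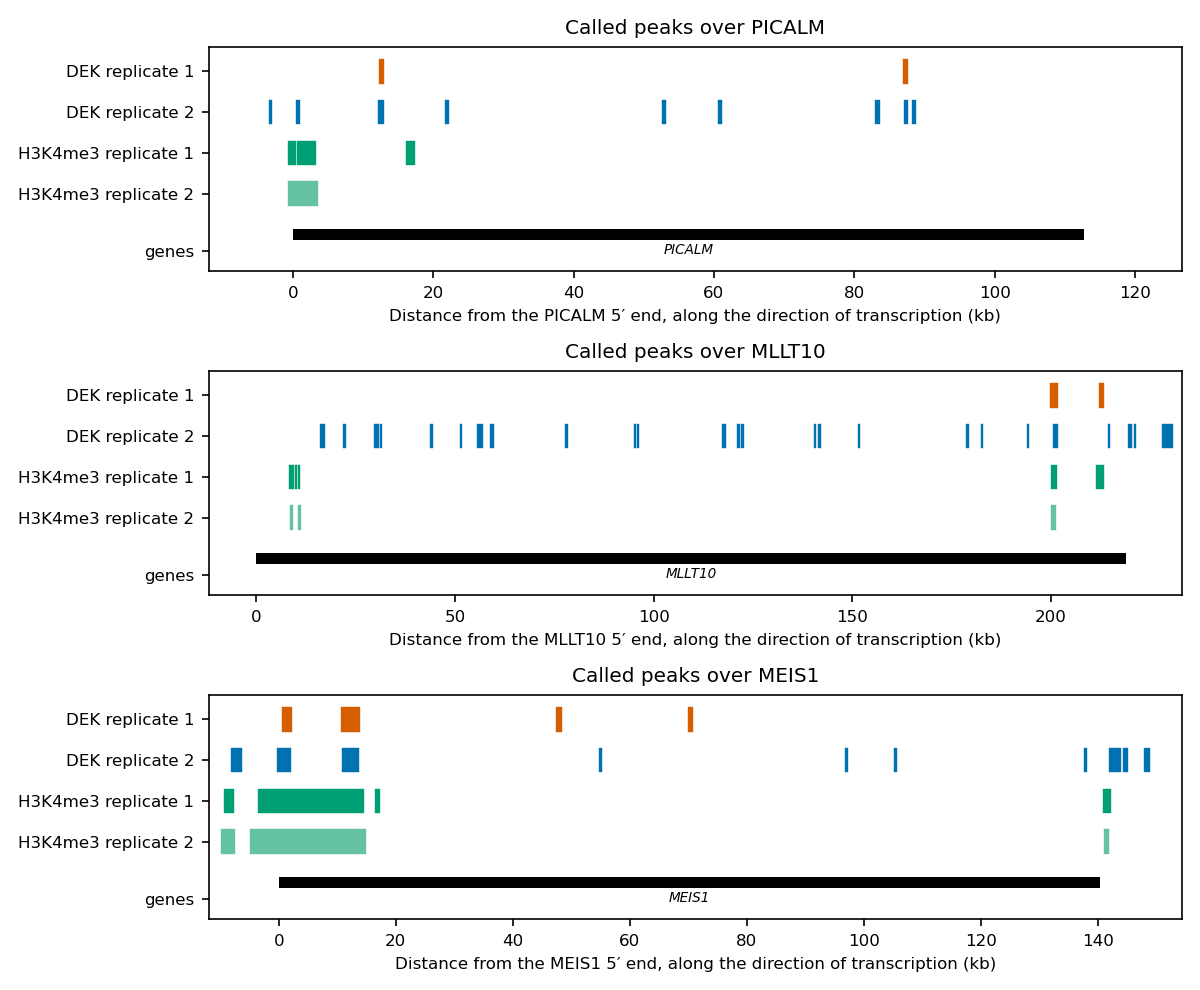
Called peaks over PICALM, MLLT10 and MEIS1, with the distance from the outermost 5′ end of each gene in kb on the horizontal axis and one row per list. At MEIS1 the peaks of all 4 lists coincide near the 5′ end, at PICALM the shared DEK intervals lie apart from H3K4me3, and at MLLT10 no DEK peak lies at the H3K4me3 of the starts.

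PICALM had 2 DEK replicate 1 peaks, 9 DEK replicate 2 peaks and 2 shared intervals in a window of 132.7 kb, and 56.6% of the genes with windows of 100 to 250 kb had as many replicate 2 peaks. The shared interval chr11:85767989-85768693, in an intron, had 32 tags and a score of 61.55 in replicate 1 and 38 tags and a score of 268.98 in replicate 2, where its fold enrichment of 11.0 was the highest of the axis. The shared interval chr11:85693311-85693893 had 24 tags and a score of 54.29 in replicate 1 and 21 tags and a score of 101.7 in replicate 2, upstream of an internal start. Neither overlapped an H3K4me3 peak.

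Both of these intervals had high-copy sequence around their summits. The 24-mers around the summit at chr11:85767989-85768693 had a median count of 1160 in replicate 1 and 1720 in replicate 2, with summits 4 bp apart. At chr11:85693311-85693893 the counts were 2100 and 6390, with summits 98 bp apart. Of the 9 DEK replicate 2 peaks of PICALM, 6 were high-copy, against 38.0% of the whole list. Whether tags of other copies contributed to these peaks was not tested.

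At the main promoter of PICALM, DEK replicate 2 had a peak of 16 tags with a score of 82.42 at chr11:85779963-85780483, with a 24-mer count of 1. It overlapped H3K4me3 in both lists, of which the replicate 2 peak spanned chr11:85777396-85781649. The nearest DEK replicate 1 peak was 12231 bp from the outermost start. The summit window of this promoter peak is printed as the one DEK peak of PICALM at a start marked by H3K4me3.
PICALM promoter, chr11:85780186-85780385: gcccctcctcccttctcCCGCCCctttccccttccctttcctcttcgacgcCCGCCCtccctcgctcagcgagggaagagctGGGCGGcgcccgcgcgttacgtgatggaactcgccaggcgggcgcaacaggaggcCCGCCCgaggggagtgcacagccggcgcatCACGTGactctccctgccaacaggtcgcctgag
The capitals mark 4 matches to GGGCGG on either strand and 1 match to CACGTG, the USF1 motif.

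MLLT10 was the only gene of the axis with no DEK peak within 1 kb of any of its 20 annotated starts in either list. The nearest DEK peak was 2279 bp from a start in replicate 2 and 50919 bp in replicate 1. H3K4me3 lay within 1 kb of 11 of the 20 starts in both lists, and the outermost start was not among them. The peak nearest to that start was chr10:21821704-21823058 in replicate 1 and chr10:21822000-21822901 in replicate 2. Its window of 239.0 kb held 25 DEK replicate 2 peaks, and 9.55% of the genes with windows of 100 to 250 kb had as many. This window is near the upper end of that range. Per 100 kb it held 10.5 peaks, against 4.92 over the chromosomes. Of the 25 peaks, 16 were high-copy, against 38.0% of the whole DEK replicate 2 list. The scores of all 25 ran from 50.61 to 220.07.

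The single shared interval of MLLT10, chr10:22014012-22015279, lay in an intron far from any annotated start of the gene and overlapped an H3K4me3 peak in both lists. DEK replicate 1 counted 97 tags there (score 104.9, enriched 6.83-fold) and replicate 2 counted 42 (score 68.35, enriched 3.2-fold). The 2 summits were 979 bp apart. The 24-mer count was 1 at the replicate 1 summit and 1670 at the replicate 2 summit. The other DEK replicate 1 peak, chr10:22025569-22026869 with 72 tags and a score of 82.6, had a 24-mer count of 1 and overlapped H3K4me3 of replicate 1 only. The highest replicate 2 score, 220.07 with 85 tags, lay downstream of the gene at chr10:22041602-22044292.

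**Figure D5:**
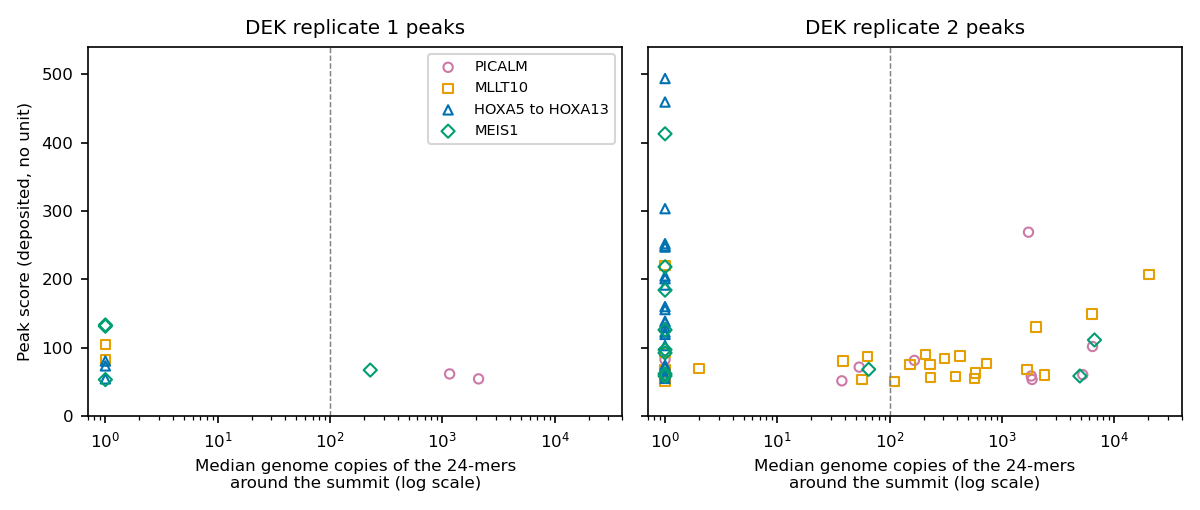
Deposited score of each DEK peak of the axis against the median genome count of the 24-mers around its summit (log scale), for the 11 peaks of DEK replicate 1 (left) and the 66 of replicate 2 (right), with the high-copy threshold of 100 dashed. All HOXA peaks have a count of 1, whereas 16 of 25 MLLT10 and 6 of 9 PICALM replicate 2 peaks lie above 100. Of the whole DEK replicate 2 list, 38.0% is high-copy.

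Over the 4 loci, DEK and H3K4me3 overlapped at different rates by locus. Of the 66 DEK replicate 2 peaks, 23 overlapped an H3K4me3 peak of replicate 1 and 23 one of replicate 2, where 10.7% and 8.05% of the whole list did. In each case 16 of the 23 were among the 21 peaks of the HOXA windows. H3K4me3 peaks covered 75.8% and 74.8% of the length of these windows in replicates 1 and 2. Whether the overlap there exceeds what such coverage gives was not tested. Of the 11 DEK replicate 1 peaks, 6 overlapped H3K4me3 replicate 1 and 5 replicate 2, where 50.2% and 34.0% of the whole list did. Of the 6 shared intervals, 4 overlapped H3K4me3 in each list (3 at MEIS1 and 1 at MLLT10), where 49.9% and 34.1% of all shared intervals did.

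Genes that act with the axis were counted in the same way. Of 25 genes listed as cofactors, partners and other members of the HOXA cluster, 15 had a DEK replicate 1 peak in the extended body, 24 a DEK replicate 2 peak and 8 a shared interval, beside the 32.6%, 90.9% and 15.7% of all genes. Window length was not matched here, and several of these genes are long, such as AFF1 and MEF2C. The shares were 55.4%, 97.7% and 25.6% for windows of 100 to 250 kb, and 16.8%, 82.2% and 8.72% for 20 to 35 kb. The replicate 1 peaks of HOXA3, HOXA4 and HOXA6, which are among the 15, are peaks already counted for HOXA5. Within 1 kb of a start, 9 of the 25 genes had a replicate 1 peak, 20 a replicate 2 peak and 6 a shared interval, beside 10.2%, 62.4% and 5.02% of all genes. The 6 genes with a shared interval at a start were DOT1L, the H3K79 methyltransferase, AFF1 and AFF4 of the elongation complexes, KMT2A, which maintains HOX transcription, BMI1 of the Polycomb group, and CDK6, a kinase of the cell cycle. H3K4me3 lay within 1 kb of a start of 23 of 25 in both lists, beside 61.9% of all genes in replicate 1 and 58.8% in replicate 2. The 2 without it were HOXA4 and FLT3.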

How the data were processed

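DEK and H3K4me3 were mapped by ChIP-seq in U937 cells. Per the labels, reads were aligned with Bowtie2 to hg19 and peaks called with MACS 1.4.1, by precipitation. For each DEK peak the authors deposited a count of tags, not normalized, a score (10 times the −log10 of the p-value), a fold ratio over local background and a false discovery rate in percent. The deposited H3K4me3 lists give positions only.

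Peaks were assigned to genes of GENCODE 44 on GRCh37 with a minimum overlap of 1 bp, each peak counted once over merged windows. Starts were those of any transcript, with 1 kb on each side. Shared intervals were the intersections of both DEK lists (4453 in all). Backgrounds were all 20163 protein-coding genes. Sequences were read from GRCh37, and 24-mers were counted on both strands of chromosomes 1 to 22, X and Y. The code was tested on simulated data and used Python 3.11.15, NumPy 2.4.6, pandas 2.3.3, pysam 0.24.0 and Matplotlib 3.10.9. No test was run. The members and lists were chosen with earlier results of these data known. The genes named were the 9 members, the other HOXA genes, neighbours with a start within 1 kb of a DEK peak of a window, and a list of 25 genes that act with them (2 more genes of the list and some sequences are not reported here), and LINC01798 and the HOXB, HOXC and HOXD clusters were added after their values were seen. Alternatives covered the extension, score, list length, overlap, start rule, background and each replicate.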

Additional observations from a re-analysis of the deposited data

How the results depend on the processing

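Of 105 recounted values, 82 stayed within 1.5 times the reported count. Of these, 10 could not change, since a background of all annotated genes leaves the member counts as they are. Cutting the longer DEK list could not change the replicate 1 counts either. With all annotated genes, the shares with a DEK peak in the extended body were 21.0% and 76.0% in replicates 1 and 2. Within 1 kb of a start they were 5.52% and 37.5%, and 30.6% and 27.5% for H3K4me3. A score of at least 100 left 3 DEK replicate 1 and 28 DEK replicate 2 peaks (31 in either list), 2 genes with a replicate 1 peak, 1 with one at a start, 1 (MEIS1) with a shared interval and 3 replicate 1 peaks in H3K4me3. Cutting DEK replicate 2 to 15017 peaks left 17 of its peaks (28 in either list), 10 of them in H3K4me3, and 11 of the 17 were HOXA peaks. Leaving out high-copy peaks, an alternative chosen after the data were seen, left 42 replicate 2 peaks (50 in either list), all 21 HOXA peaks and 1 gene with a shared interval, MEIS1. With an extension of 25 kb, 9 genes had a replicate 1 peak. When the middle of the peak, or at least 50% of each peak, had to overlap, 1 replicate 2 peak stayed with H3K4me3, since the wide domain is much longer than any DEK peak, and 3, 5 and 5 genes had H3K4me3 at a start (replicate 1, replicate 2, either). Without DEK replicate 1 or 2, the genes with a peak in the window ranged from 5 to 9, those with one at a start from 3 to 8, the peaks from 11 to 66 and, in place of shared intervals, the genes with a peak from 5 to 9. Leaving out either H3K4me3 replicate, 8 genes had H3K4me3 at a start.

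No paired analysis was possible because no test was run between groups. DEK peaks in only 1 list, a depth known only as a minimum per sample, a false discovery rate of 100% in replicate 1 and Input lists that were not used here limit every count above.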
